A study of Drosophila melanogaster with 14 samples.

Results

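The 10 genes described here make, package and take back the small-molecule transmitters of the Drosophila nervous system. They were taken by name from a table of 13781 genes, with earlier results of these data known. ChAT (CG12345) and VAChT (CG32848) serve acetylcholine, VGlut (CG9887) glutamate and Gad1 (CG14994) GABA. Vmat (CG33528) loads monoamines into vesicles, DAT (CG8380) and SerT (CG4545) take up dopamine and serotonin, and Trhn (CG9122), Tdc2 (CG30446) and Tbh (CG1543) act in the synthesis of serotonin, tyramine and octopamine. ChAT and VAChT lie on chromosome arm 3R, Gad1 and Trhn on 3L, VGlut on 2L, Vmat, DAT, SerT and Tdc2 on 2R, and Tbh on the X. mRNA was sequenced by RNA-Seq from pools of 50 whole embryos in 14 libraries, and stages 16 and 17 were each covered by 2 WT, 2 He and 3 Ho libraries. WT embryos were Oregon R. He embryos carried 1 copy of Df(2L)32FP-5, a deletion of the spalt genes salm and salr, from a cross of balanced deficiency females with white- males. Ho embryos carried Df(2L)32FP-5 on both chromosomes and came from the balanced stock, and both mutant classes were picked by their lack of the balancer's GFP, so genotype and strain background cannot be told apart. The stage of each library is that of its title, since another label field gives stage 16 and the same range of hours for all. The paper puts early stage 17 at around 16 hours of development, which is later than that range. The labels also give the same temperature for all libraries.

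Insect central neurons use acetylcholine as their main fast excitatory transmitter, whereas motor neurons release glutamate onto muscle and GABA is the main inhibitory transmitter. Dopamine, serotonin, octopamine and tyramine are made by small sets of neurons, and they share a vesicular transporter. Use of a transmitter by a neuron is marked by expression of the enzyme that makes it, the vesicular transporter that loads it, or both. Stage 17 is the last of embryogenesis, when synapses mature and coordinated movement begins. In these whole-embryo pools, fewer cells of a type and less RNA per cell cannot be told apart.

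The deposited values are on a log2-like scale, on which a gene without reads stands at -0.040. Equal steps on this scale are smaller than true doublings, as values of 8, 10 and 12 stand for about 719, 2068 and 6184 size-factor-normalized reads. Differences below are therefore given on the deposited scale with their standard error (SE), and folds are ratios of mean normalized reads recovered from the values. A gene was called at a Benjamini-Hochberg adjusted p under 0.001 in limma over 11584 tested genes, and all 10 genes were among them. Libraries held 4733198 to 23160107 reads on genes, with replicates a and b of Ho16 the shallowest at 4733198 and 6040250. Ho16 replicate c had 4514 genes at 0 reads against 1376 to 2803 in the other 13 libraries. The 6 libraries of replicates a, b and ab outside Ho17 had 512 to 645 genes at exactly 1 read, and the other 8 had 46 to 94. salm stood at 8.0 to 9.44 in every WT and He library and at -0.04 to 4.50 in the Ho libraries, and salr at 7.51 to 8.55 and at -0.04 to 4.43, so both deleted genes were low where the labels say Ho.

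From stage 16 to 17 the neurotransmitter genes that changed all rose. Averaged over the 3 genotypes, ChAT, Gad1, Vmat, Tbh and Trhn were called higher at stage 17 and none of the 10 was called lower. These were 5 of 10 genes, while 12.1% of all tested genes were called higher in that comparison. The median difference of the 10 genes was 1.57 on the deposited scale, and that of all tested genes was 0.01. Within single genotypes the calls were fewer. In WT, 1 of 10 was called (Gad1; 2.77% of tested genes were called higher), in He 0 (2.49%) and in Ho 3 (ChAT, Gad1 and Tbh; 6.91%). In He, limma's count of 0 stood beside 5 of the 10 genes at an unadjusted p under 0.05, as were 21.6% of all tested genes. In the exact negative binomial test, run on reads recovered from the values, 7 of 10 were called higher in WT (15.2% of genes tested), 4 in He (13.2%) and 2 in Ho (7.49%). In 5 genes (ChAT, VGlut, Gad1, Vmat and Tbh) every stage 17 library lay above every stage 16 library, as it did in 14.1% of tested genes.

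**Figure D1:**
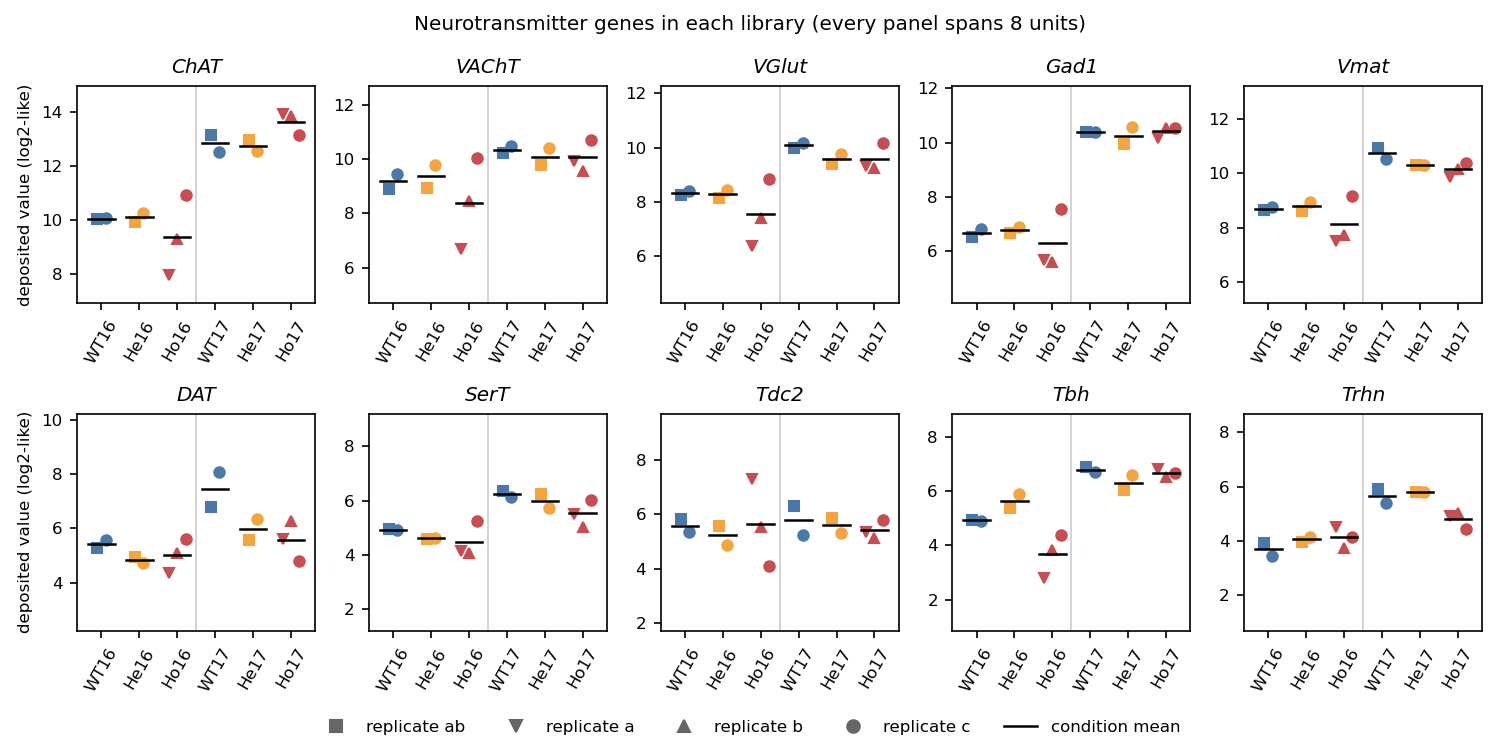
Deposited value (log2-like, y axis) of each gene in each of the 14 libraries, by condition on the x axis, with the mean of each condition as a bar and the replicate letter as the symbol. ChAT and Gad1 show the widest gap between stages, Tdc2 shows none, and the 3 Ho16 libraries spread more than those of any other condition for ChAT, VAChT and VGlut.

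ChAT, the enzyme that makes acetylcholine, gained the most normalized reads of the 10 genes. At stage 16 it stood at 10.04 and 10.08 in WT, at 9.95 and 10.26 in He, and at 7.98, 9.29 and 10.92 in Ho. At stage 17 the values were 13.14 and 12.52 in WT, 12.95 and 12.55 in He, and 13.91, 13.83 and 13.13 in Ho. No stage 17 library overlapped with a stage 16 library, and Ho libraries held the lowest and the highest value at stage 16 and the highest pair at stage 17. Averaged over genotypes the difference was 3.22 ± 0.38 (SE; adjusted p = 2.1e-05), a 6.01-fold rise from 2056 to 12354 normalized reads. The rise was 4.81-fold in WT (2.77 ± 0.69, adjusted p = 0.017), 4.41-fold in He (2.65 ± 0.69, adjusted p = 0.025) and 9.30-fold in Ho (4.23 ± 0.57, adjusted p = 1.4e-04). The stage change in Ho did not differ from that in WT by limma's test, and 0% of tested genes were called for that difference.

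VAChT, the transporter that loads acetylcholine into vesicles, is transcribed from the same locus as ChAT and shares its first exon. The Release 6 annotation gives the pair 606 exon bases in common on the same strand, 15.1% of the exon bases of ChAT and 8.50% of those of VAChT, and reads there cannot be told apart. VAChT stood at 8.90 and 9.46 in WT16, at 8.94 and 9.80 in He16, and at 6.69, 8.47 and 10.04 in Ho16. At stage 17 it stood at 10.22 and 10.47 in WT, at 9.78 and 10.40 in He, and at 9.94, 9.57 and 10.70 in Ho. The stages overlapped, because the highest stage 16 value (Ho16 replicate c) exceeded 3 stage 17 values. The averaged difference of 1.19 ± 0.44 was not called (adjusted p = 0.050), at 1.72-fold in normalized reads.

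The genes of this shared locus parted between the stages. Each library held 1.28 to 2.06 reads of ChAT per read of VAChT at stage 16 (n = 7) and 3.16 to 11.5 at stage 17 (n = 7), with no overlap. The ratio was 3.26 times as high at stage 17 on average. This ratio was chosen after its values were seen and was not tested, and it does not depend on the scaling between libraries. At stage 17 it was 5.24 and 3.16 in WT, 5.87 and 3.33 in He, and 10.1, 11.5 and 4.05 in Ho. In all 3 genotypes the lowest of these came from replicate c, whose libraries ranged from 3.16 to 4.05 against 5.24 to 11.5 in the other 4. Within replicate c alone the ratio was 1.28 to 1.60 at stage 16 and 3.16 to 4.05 at stage 17. The a and b libraries of Ho17 lay above the ab libraries of WT17 and He17, a difference that was not tested. These libraries are not alike apart from genotype, as Ho17 a and b had 79 and 71 genes at exactly 1 read and WT17 ab and He17 ab had 543 and 512.

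**Figure D2:**
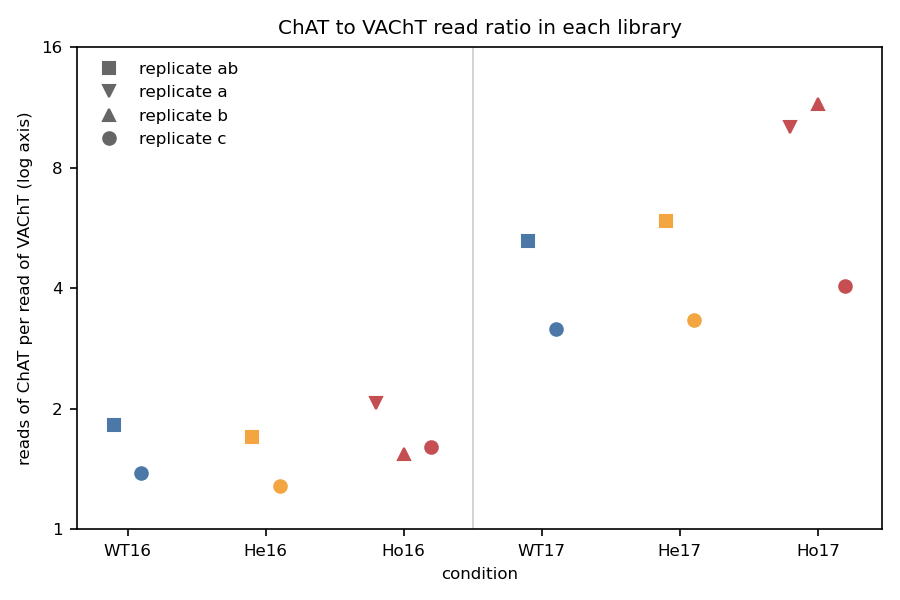
Reads of ChAT per read of VAChT (y axis, log scale) in each library by condition, with replicate letters as symbols. The 7 stage 16 libraries lie between 1.28 and 2.06 and the 7 stage 17 libraries between 3.16 and 11.5, with replicate c lowest in each stage 17 condition.

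VGlut, the vesicular glutamate transporter of motor neurons and other glutamatergic cells, stood at 8.27 and 8.41 in WT16, 8.14 and 8.45 in He16, and 6.37, 7.40 and 8.85 in Ho16. It reached 9.99 and 10.17 in WT17, 9.39 and 9.75 in He17, and 9.32, 9.26 and 10.17 in Ho17. All stage 17 libraries were above all stage 16 libraries, yet the averaged difference of 1.69 ± 0.34 missed the threshold (adjusted p = 0.0016; 2.35-fold in normalized reads). It was called in 5 of 22 limma alternatives, among them the fits without Ho16 replicate a and without Ho16 replicate c.

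Gad1, the glutamic acid decarboxylase that makes GABA, was called higher on average, in WT and in Ho. It stood at 6.51 and 6.83 in WT16, 6.67 and 6.89 in He16, and 5.69, 5.60 and 7.57 in Ho16. In stage 17 it stood at 10.38 and 10.40 in WT, 9.95 and 10.57 in He, and 10.16, 10.54 and 10.55 in Ho. The 7 stage 17 libraries spanned 0.62 on the deposited scale and lay far above all stage 16 libraries. The averaged difference was 3.78 ± 0.30 (adjusted p = 7.9e-07), and normalized reads rose 7.40-fold, by 7.43-fold in WT, 6.59-fold in He and 8.33-fold in Ho. Gad1 was called in WT (3.72 ± 0.56, adjusted p = 6.5e-04) and in Ho (4.13 ± 0.46, adjusted p = 3.5e-05), and fell just short in He (3.48 ± 0.56, adjusted p = 0.0011). The call in WT was lost in 11 of the 14 fits that left out 1 library, so it sat at the threshold.

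Vmat, which packages dopamine, serotonin, octopamine and tyramine alike, stood at 8.63 and 8.75 in WT16, 8.62 and 8.95 in He16, and 7.50, 7.73 and 9.16 in Ho16. Its stage 17 values were 10.93 and 10.54 in WT, 10.30 and 10.32 in He, and 9.88, 10.16 and 10.38 in Ho. The stages did not overlap, and Vmat was called higher on average (1.86 ± 0.26, adjusted p = 1.0e-04; 2.61-fold) and in 22 of 22 limma alternatives. Exons of CG13330 on the opposite strand cover 26.2% of the exon bases of Vmat in the Release 6 annotation, and whether the counting used strand is not given in the sources used here.

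The uptake transporters gave less clear differences. DAT, which takes dopamine back into neurons, stood at 5.26 and 5.55 in WT16, 4.93 and 4.73 in He16, and 4.36, 5.08 and 5.62 in Ho16. At stage 17 it was at 6.79 and 8.08 in WT, 5.56 and 6.35 in He, and 5.62, 6.25 and 4.78 in Ho. WT17 stood above every other library of the series, and the averaged difference of 1.23 ± 0.34 was not called (adjusted p = 0.013; 2.53-fold). The rise was 3.60-fold in WT, 2.22-fold in He and 1.46-fold in Ho, and in Ho the stages overlapped.

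SerT, the serotonin transporter, stood at 4.94 and 4.92 in WT16, 4.60 and 4.63 in He16, and 4.14, 4.06 and 5.26 in Ho16. Later it was at 6.35 and 6.12 in WT17, 6.23 and 5.74 in He17, and 5.51, 5.04 and 6.04 in Ho17. Only Ho16 replicate c reached into the stage 17 range, where it exceeded Ho17 replicate b. The averaged difference was 1.24 ± 0.28 and was not called (adjusted p = 0.0043; 2.35-fold).

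Trhn, the neuronal tryptophan hydroxylase that begins serotonin synthesis, was per length the scarcest of the 10 genes in WT at stage 16. It stood at 3.92 and 3.46 in WT16, 3.97 and 4.16 in He16, and 4.50, 3.72 and 4.16 in Ho16. At stage 17 it reached 5.91 and 5.39 in WT, 5.79 and 5.81 in He, and 4.93, 5.01 and 4.44 in Ho. WT and He separated fully between stages, and Ho did not. The averaged difference of 1.46 ± 0.26 was called (adjusted p = 7.8e-04; 3.10-fold), but the call was lost in 17 of 22 limma alternatives, with differences of 1.37 to 1.59 and adjusted p up to 0.0047. By genotype the fold was 4.55 in WT, 3.60 in He and 1.68 in Ho, and the stage change in Ho was not called as different from that in WT.

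Tdc2 and Tbh act one after the other, as Tdc2 is the neuronal tyrosine decarboxylase that makes tyramine and Tbh the hydroxylase that turns tyramine into octopamine. Tdc2 stood at 5.82 and 5.36 in WT16, 5.58 and 4.88 in He16, and 7.31, 5.55 and 4.11 in Ho16. At stage 17 it was at 6.32 and 5.26 in WT, 5.88 and 5.32 in He, and 5.36, 5.12 and 5.81 in Ho. The stages overlapped in every genotype, and the averaged difference was 0.11 ± 0.44 (adjusted p = 0.88), with a sign that turned under upper-quartile scaling and when 1 of several libraries was left out. Tdc2 was highest in the very library, Ho16 replicate a, in which ChAT, VAChT, VGlut, Vmat, DAT and Tbh were at their lowest of all 7 stage 16 libraries.

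Tbh, in contrast, stood at 4.93 and 4.90 in WT16, 5.39 and 5.88 in He16, and 2.81, 3.83 and 4.38 in Ho16. It rose to 6.88 and 6.70 in WT17, 6.02 and 6.60 in He17, and 6.82, 6.53 and 6.67 in Ho17. No stage 17 library overlapped with stage 16, and the averaged difference was 1.85 ± 0.28 (adjusted p = 2.0e-04; 2.95-fold), called in 16 of 22 limma alternatives. Its rise was 7.72-fold in Ho (3.00 ± 0.42, adjusted p = 2.0e-04), 3.37-fold in WT and 1.54-fold in He. The Ho16 reads behind it were few, at 4, 22 and 79 in replicates a, b and c.

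**Figure D3:**
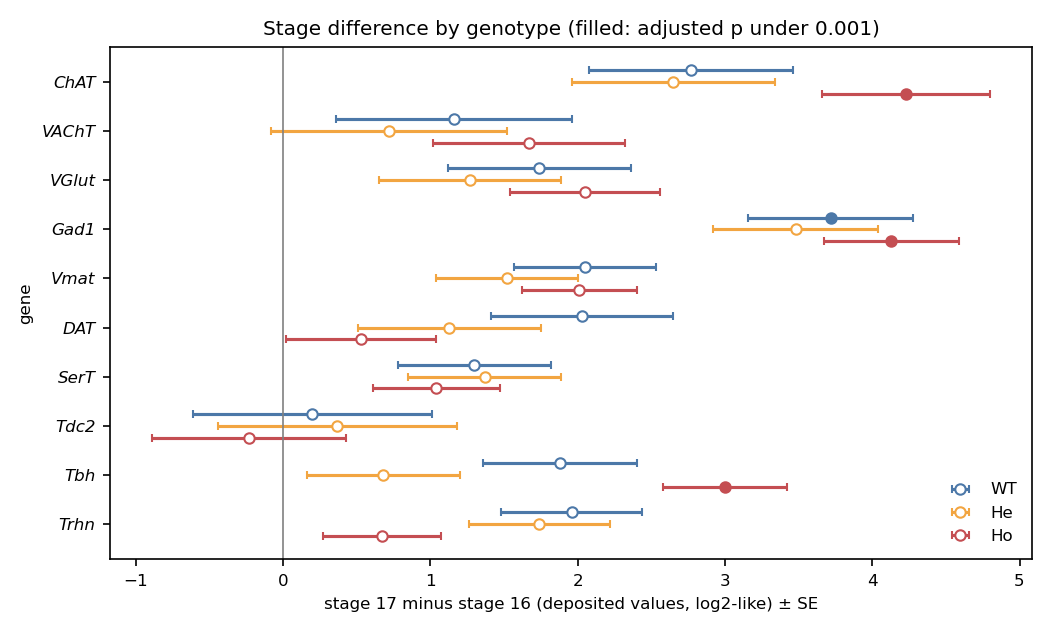
Difference between stage 17 and stage 16 (x axis, deposited values, with the SE of the fit) for each gene in WT, He and Ho, with filled points where the adjusted p was under 0.001. Filled points are Gad1 in WT and ChAT, Gad1 and Tbh in Ho, and Tdc2 sits at 0 in all 3 genotypes within its SE.

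To compare genes with one another, reads were set per length of exon (Release 6) and per library depth, as RPKM (mean ± SD). ChAT led in every condition, at 40.2 ± 1.28 RPKM in WT16, 42.1 ± 4.25 in He16 and 32.8 ± 25.7 in Ho16. It reached 158 ± 29.0 in WT17, 154 ± 27.5 in He17 and 269 ± 72.1 in Ho17. Gad1 stood at 7.04 ± 1.07 RPKM in WT16, below ChAT, VAChT, VGlut and Vmat, and below ChAT alone in WT17 (43.0 ± 3.73), He17 (41.6 ± 9.18) and Ho17 (44.2 ± 3.94). VGlut (23.5 ± 3.48), Vmat (23.4 ± 1.65) and VAChT (21.9 ± 3.76) came next in WT17 and did not differ from each other beyond their spread. In WT17, DAT followed at 11.6 ± 6.43 RPKM, and Tbh (5.88 ± 0.0156), Tdc2 (5.52 ± 2.19), Trhn (5.20 ± 0.831) and SerT (4.39 ± 0.0912) closed the order. Of these, Tdc2 overlapped with both its neighbours within its SD. The 10 genes together took 449 to 506 CPM (reads scaled to library depth) in WT16 and 1329 to 1409 in WT17, 459 to 555 and 1220 to 1264 in He, and 149 to 646 and 1468 to 1866 in Ho.

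Between genotypes, none of the 10 genes was called in any of 6 comparisons, nor did limma find a called gene among them under 22 alternatives. Across all tested genes the calls were as rare, at 0.00863% for Ho against WT at stage 16, for Ho against WT at stage 17 and for He against WT at stage 16, and 0% for He against WT at stage 17 and for Ho against He at either stage. Even the deleted genes salm and salr were not called in Ho, at median differences from WT of -6.26 (stage 16) and -6.61 (stage 17). Their limma adjusted p was 0.048 to 0.051 against WT at stage 16 and 0.019 to 0.048 at stage 17. Against He it was 0.37 at stage 16 and 0.11 to 0.16 at stage 17. A missing call between genotypes therefore does not show equal levels. At an unadjusted p under 0.05 there was at most 1 of the 10 genes per comparison, beside 1.23 to 8.15% of all tested genes. The tests of whether the stage change differed in Ho or in He from that in WT called none of the 10 either (0% of tested genes in both). At an unadjusted p under 0.05 they held 0 of the 10, beside 4.19% (Ho) and 0.527% (He) of all tested genes.

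DAT came closest at stage 17. Its values in Ho17 lay below both WT17 libraries (difference -1.88 ± 0.57, adjusted p = 0.29), at 181 against 558 normalized reads, and in He17 it also lay below WT17, at 227. The exact negative binomial test called DAT lower in Ho17 (adjusted p = 9.0e-04), as it did 1.06% of tested genes, and did not call it in He17 (adjusted p = 0.021). The 2 WT17 libraries themselves differed by 1.29 on the deposited scale. Vmat, SerT and Trhn were lower without overlap in Ho17 as well, so that 4 of 10 genes separated Ho17 from WT17, against 29.2% of tested genes. He17 also lay below WT17 without overlap in 4 of the 10 (VGlut, Vmat, DAT and Tbh). The count in Ho17 is therefore not particular to Ho and is not read as a property of the 10 genes. In Ho17 the differences of Vmat, SerT and Trhn from WT17 were -0.59 ± 0.44, -0.70 ± 0.48 and -0.86 ± 0.44, with limma adjusted p of 0.85, 0.82 and 0.67. ChAT was at 17103 normalized reads in Ho17, 10276 in WT17 and 9684 in He17. Its difference between Ho17 and WT17 of 0.79 ± 0.63 was not called by limma (adjusted p = 0.86) or by the exact negative binomial test (adjusted p = 0.31). Every Ho17 library lay above both He17 libraries (0.87 ± 0.63), again without a call in limma or in the exact negative binomial test (adjusted p = 0.15 in the latter). Of the 10 genes, only Trhn also separated Ho17 from He17, and it was lower.

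At stage 16, Tbh was the only one of the 10 genes that separated Ho from WT without overlap, against 19.3% of tested genes. It was lower in all 3 Ho16 libraries than in any WT16 or He16 library, at 44.5 normalized reads against 109 in WT16 and 182 in He16. The differences were -1.24 ± 0.47 from WT16 (adjusted p = 0.73) and -1.96 ± 0.47 from He16 (adjusted p = 0.71). By stage 17 Tbh stood at 344, 367 and 280 normalized reads in Ho, WT and He, and Ho overlapped with both.

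The Ho16 libraries spread widely, and genes expressed by all neurons spread with them. Summed reads of 8 pan-neuronal genes (elav, nSyb, Syt1, Syx1A, Snap25, Rab3, para and cac) ranged from 177 to 1324 CPM in Ho16, against 660 to 768 in WT16 and 732 to 1100 in He16. All 8 were lowest in Ho16 replicate a and highest in replicate c of the 3 Ho16 libraries. All 8 were also lower in replicate a than in the other 6 stage 16 libraries, as were 6 of the 10 neurotransmitter genes, 2 of 6 glial genes, 1 of 5 muscle genes, 2 of 4 epidermal and cuticle genes and 25.9% of all tested genes. None of the pan-neuronal, glial, muscle or epidermal markers was at 0 reads in any library. The part of this spread in the comparisons above was not tested beyond leaving libraries out. Without Ho16 replicate c, 3 of the 10 genes were called in WT, 2 in He, 5 in Ho and 7 on average, where 5.73, 4.99, 10.9 and 16.4% of tested genes were called higher. Without replicate a the counts were 1, 1, 3 and 6, beside 3.83, 3.26, 6.44 and 13.9% of tested genes.

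Set against the pan-neuronal genes of the same library, 3 of the 10 genes (ChAT, Gad1 and Tbh) had a higher share in every stage 17 library than in any stage 16 library, as did 6.08% of tested genes. ChAT reads came to 16.4 to 23.9% of the summed pan-neuronal reads in the stage 16 libraries and to 46.0 to 118% at stage 17. For Gad1 the shares were 2.51 to 5.60% and 13.0 to 17%, and for Tbh 0.392 to 1.62% and 1.72 to 2.39%. VGlut (6.1 to 9.36% and 8.35 to 12.7%) and Vmat (7.18 to 16.4% and 11.2 to 21%) overlapped between stages. VAChT stayed in one range, at 10.4 to 15.5% at stage 16 and 10.2 to 15.1% at stage 17. In Ho16 replicate a the shares of ChAT (21.3%) and VGlut (8.58%) lay inside the range of the other stage 16 libraries. For 6 of the 10 genes the share in that library was the highest of the stage, at 14.8% for Tdc2, 16.4% for Vmat, 5.60% for Gad1, 2.38% for Trhn, 2.15% for DAT and 1.79% for SerT. The pan-neuronal sum by which reads were divided was lowest there, at 177 CPM against 568 to 1324 in the other stage 16 libraries. A low sum raises the share of any gene that was not equally low. The proportion of all tested genes that were highest there is not given, so this count is not read as a property of the 10 genes. From stage 16 to 17 the pan-neuronal genes had 1 of 8 called higher, against 12.1% of tested genes (para, a sodium channel, 2.62 ± 0.33, adjusted p = 4.4e-05), and a median difference of 1.41, and elav, an RNA-binding protein of neurons, differed by -0.95 ± 0.41 without a call (adjusted p = 0.094).

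**Figure D4:**
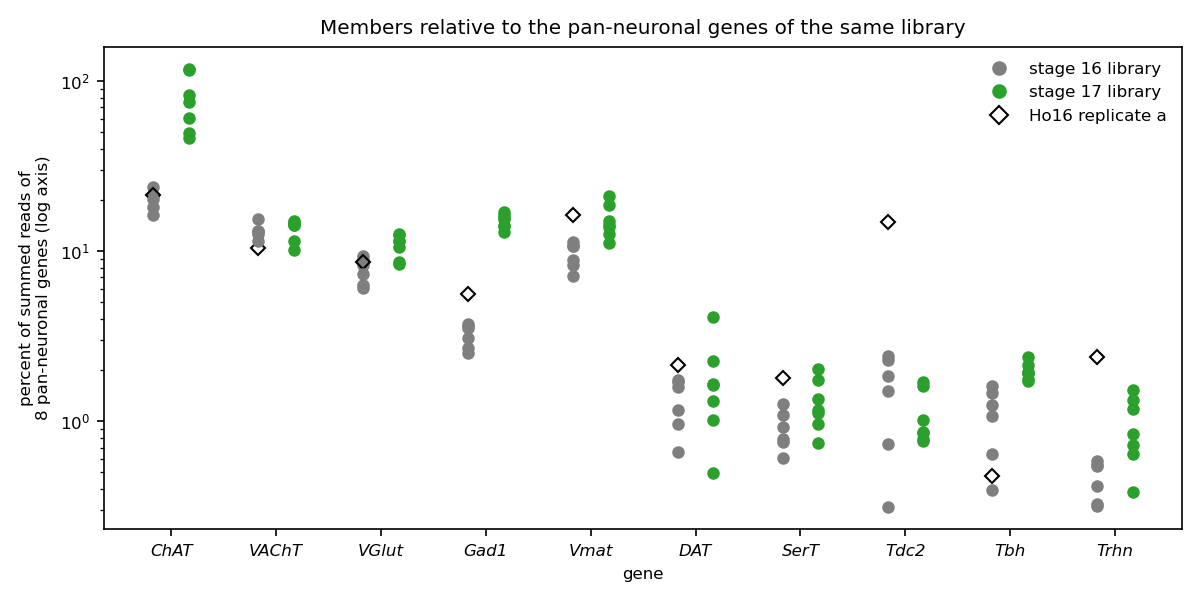
Reads of each gene as a percentage of the summed reads of 8 pan-neuronal genes in the same library (y axis, log scale), with stage 16 libraries in grey and stage 17 in green. ChAT, Gad1 and Tbh do not overlap between stages, and VAChT spans the same range in both. Ho16 replicate a (open diamond), which has the lowest pan-neuronal sum, is the highest stage 16 library for Tdc2, Vmat, Gad1, Trhn, DAT and SerT.

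Other genes of transmitter metabolism were read from a list of 20. Of 8 for synthesis and cofactors, 3 were called higher on average over genotypes and none lower, in the comparison that called 12.1% of tested genes higher. Ddc, which makes dopamine and serotonin and also serves cuticle hardening, gave 7.08 ± 0.48 (adjusted p = 2.0e-07), Tdc1, the non-neuronal tyrosine decarboxylase, 3.72 ± 0.27 (adjusted p = 2.9e-07), and Gs2, a glutamine synthetase, 2.75 ± 0.23 (adjusted p = 9.9e-07). ple, the tyrosine hydroxylase at the start of dopamine synthesis, differed by 0.45 ± 0.32 and was not called (adjusted p = 0.32). Tdc1 was thus called while its neuronal counterpart Tdc2 was not, and the difference between the pair was not tested.

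Of 5 uptake genes, 3 were called higher in the same comparison. They were Eaat1 and Eaat2, transporters of excitatory amino acids, at 5.43 ± 0.38 (adjusted p = 2.6e-07) and 2.41 ± 0.29 (adjusted p = 2.6e-05), and ChT, which returns choline to cholinergic terminals, at 2.18 ± 0.31 (adjusted p = 1.2e-04). Gat, the GABA transporter, was at 1.62 ± 0.46 without a call (adjusted p = 0.016). Of 5 genes for breakdown and recycling, 2 were called higher, Ace, the acetylcholinesterase (1.77 ± 0.32, adjusted p = 8.5e-04), and the gene e (ebony), which joins beta-alanine to dopamine and histamine (3.74 ± 0.29, adjusted p = 5.3e-07). Neither of the 2 vesicular genes was called, and VGAT, the vesicular GABA transporter, gave 0.81 ± 0.22 (adjusted p = 0.013). Fold changes in normalized reads were 62.1 for Ddc, 23.6 for Eaat1, 10.7 for Tdc1, 3.39 for ChT, 2.46 for Ace and 1.63 for VGAT. Among markers of other tissues, 1 of 6 glial genes (Eaat1 itself) and 1 of 5 muscle genes (Tm2, a tropomyosin, 1.35 ± 0.19, adjusted p = 1.2e-04) were called higher, again beside 12.1% of tested genes. Of 4 epidermal and cuticle genes, 2 were called lower, as were 3% of tested genes, the chitin synthase kkv (-1.38 ± 0.17, adjusted p = 4.2e-05) and knk (-2.53 ± 0.33, adjusted p = 5.4e-05).

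**Figure D5:**
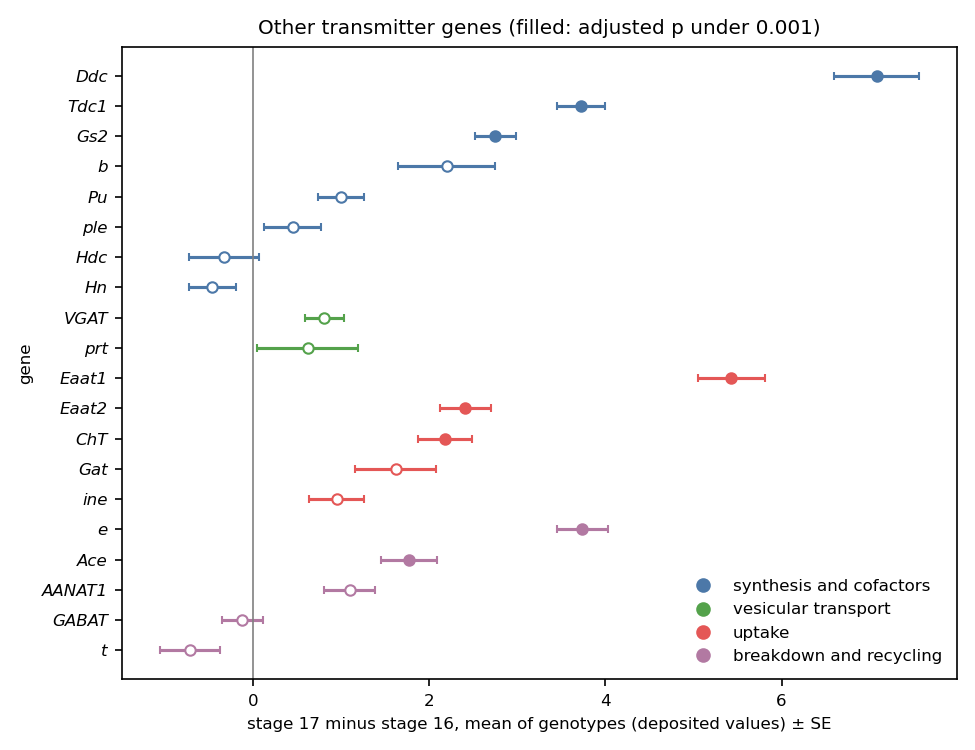
Difference between stage 17 and stage 16 averaged over genotypes (x axis, deposited values, with SE) for 20 other transmitter genes, coloured by role and filled where the adjusted p was under 0.001. Ddc at 7.08 and Eaat1 at 5.43 lie furthest to the right, and none of the genes left of 0 is filled.

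The stage differences were also read within replicate letters, which the study used for separate experiments. Within replicate c, with 1 library per condition, 8 of the 10 genes were higher at stage 17 in all 3 genotypes, and within the a, b and ab libraries 9 were. The share of all tested genes that did so is not given here, so these counts have no background beside them. ChAT differed by 2.32 on average within replicate c and by 3.78 within the others, and Gad1 by 3.41 and 3.95. The set of a, b and ab libraries is mixed in Ho. There Ho16 a and b had 645 and 608 genes at exactly 1 read, and Ho17 a and b had 79 and 71. Whether this enters the contrast between the sets was not tested. The exceptions were DAT in replicate c, where Ho went down by 0.84 on the deposited scale, and Tdc2 in both sets.

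In pattern over the 14 libraries, the tested genes most like ChAT were Zasp52 (Pearson r = 0.990), CG8547 (r = 0.985) and VhaAC45 (r = 0.984). Those most like VGlut were DIP-zeta, CG44085 and Syn, each at r = 0.975. Within the 10 genes, ChAT followed Gad1 (r = 0.96) more closely than VAChT (r = 0.78), and VAChT followed VGlut (r = 0.94). All of these points share the same libraries and the step between stages, so the values describe the patterns only.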

How the data were processed

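The authors mapped Illumina reads onto the FlyBase r5.22 genome with Bowtie, summed them by gene and deposited 1 table of 13781 genes in 14 libraries, in which the gene counts were divided by DESeq size factors and passed through its variance-stabilizing transformation. The deposited values are thus on a log2-like scale, and tool versions are not given in the sources used here. Libraries labelled ab are technical replicates that the authors grouped, and the study describes the replicates as separate pool preparations.

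Whole reads were recovered from the values, since the values of every library step along 1 curve. Of 158533 values above 0 reads, 99.9% lay within 0.05 of a whole read, and the highest counts are extrapolated. Intervals were not computed.

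The 6 condition means were fitted in limma 3.58.1 (R 4.3.3) with a trended moderation (residual df 8, prior df 4.58), and p-values were adjusted by Benjamini and Hochberg per comparison. A gene entered the fit if 2 or more libraries held 10 reads after scaling to the median depth and the sum over libraries reached 15, which kept 11584 of 13244 genes. The exact negative binomial test was rewritten with locfit 1.5.9.12. Both tests and the recovery were tested on simulated data. Comparisons were between stages in each genotype and on average, between genotypes at each stage, and of stage changes.

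The genes, lists and tests were chosen with earlier results of these data known. Named were all 10 genes in every comparison, salm and salr, ChT, Ace, VGAT, ple, Ddc, Eaat1 and Gat, other list genes called on average over stages, and the 3 genes most like ChAT and VGlut. Symbols and exon lengths came from a Release 6 annotation, so no coordinates are given, and promoter windows were not analysed here. Python 3.11.15 with numpy 2.4.6, pandas 2.3.3, scipy 1.17.1 and matplotlib 3.10.9 was used for summaries.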

Additional observations from a re-analysis of the deposited data

Results flagged for a closer look

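Stage differences that ran in opposite directions without overlap in 2 genotypes were found for 3 genes of the lists and for none of the 10 neurotransmitter genes. The share of all tested genes that meet this rule is not given here, so the count is not read as a property of these genes. Hdc, the histidine decarboxylase that makes histamine, was higher at stage 17 in both He17 libraries and lower in all 3 Ho17 libraries than at stage 16. It rested on few reads, at 7, 10 and 22 in Ho16 and 12, 2 and 0 in Ho17. Its nearest He libraries stood at 3.78 (He16) and 3.84 (He17). The stage difference of Hdc in He exceeded that in Ho by 2.68 on the deposited scale. GABAT, which breaks down GABA, did the same by 1.58, with 9.64 and 9.10 in He16, 10.23 and 9.64 in He17, 10.68, 9.81 and 9.46 in Ho16, and 8.95, 8.90 and 9.06 in Ho17, where the nearest He libraries are equal to 2 decimals. The cuticle gene verm was higher at stage 17 in He and lower in WT, with a gap of 0.56. The stage change of verm in He did not pass limma's test against that in WT (0.56 ± 0.48, adjusted p = 1). The differences between He and Ho were not tested.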

How the results depend on the processing

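None of the 10 genes was called lower at stage 17 under any setting, and none was called in a genotype comparison or a stage-change comparison under any of 22 limma alternatives. The counts of genes called higher (in WT, He, Ho and on average 1, 0, 3 and 5) moved as follows. At an adjusted p under 0.05 they were 6, 3, 5 and 8, beside 1220, 1064, 2156 and 2665 of the 11584 tested genes called higher (23% on average). Library weights gave 3, 3, 5 and 7, beside 884, 970, 1609 and 2275 tested genes (19.6% on average, against 12.1% in the reported fit). The exact negative binomial test gave 7, 4 and 2 in the single genotypes, beside 15.2, 13.2 and 7.49% of genes tested. It also called 1 gene (DAT) in Ho17 against WT17. With only the libraries compared the counts were 0, 1, 0 and 5, beside 0, 283, 101 and 1402 of the 11584 tested genes called higher. With a pseudocount of 1 they were 0, 0, 3 and 4, beside 192, 176, 671 and 1327 tested genes. Upper-quartile scaling gave 0, 0, 3 and 3, beside 150, 136, 566 and 1146 tested genes. That scaling moved the median of all genes to -0.16 on average, which the members' differences include. Leaving out 1 library gave 0 to 3 in WT, 0 to 2 in He, 1 to 5 in Ho and 3 to 7 on average (9 to 16.4% of all tested genes for the average). Shares of tested genes in the single genotypes are given above only for the fits without Ho16 replicate a or c. Without the shallow Ho16 replicates a and b together, an alternative added after seeing the data, 1 Ho16 library is left. It is then assumed to vary like the others, so counts from that fit are not given. ChAT, Gad1 and Vmat were called on average in 22 of 22 limma alternatives. With the replicate block the counts were 1, 1, 3 and 5, beside 323, 296, 824 and 1447 tested genes called higher. In that fit VGlut was called on average (adjusted p = 1.8e-04) and Trhn was not (adjusted p = 0.0016). Same-lettered libraries of the 2 stages deviated together at r = 0.30 in WT and 0.32 in He, and at 0.02, 0.03 and 0.12 in Ho. In WT and He, with 2 libraries per condition, both letters share 1 value of r by construction. The reported fit does not pair libraries by letter, although 5 of 7 letters exceeded 0.1, and the replicate block gives the counts with letters included.

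Signs turned for Tdc2, which reached -0.03 in WT and -0.05 on average with upper-quartile scaling, 1.32 in Ho without the 2 shallow libraries, and with 1 library left out ranged from -0.34 to 0.73 in WT, from -1.0 to 0.60 in Ho and from -0.14 to 0.39 on average. DAT in Ho reached -0.07 without the 2 shallow libraries. The causes were not tested. Tbh rested on 4 reads in Ho16 replicate a. With reads thinned to the smallest library, Tbh stayed called in Ho and on average, and Trhn was not called.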
